A study of Drosophila melanogaster with 6 samples.

Results

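Testes of adult Drosophila melanogaster males aged 9–11 d were compared with testes of males aged 6–8 d, cell type by cell type, in chinmoST and in wild-type (WT) flies. The comparison rests on 4 of the 6 libraries of the series, 1 per genotype and age, so that the genotypes formed 2 pairs. Of the 17 annotated cell types, 10 held at least 20 cells in each of the 4 libraries, and these 10 types held 14556 of the 15399 kept cells of the 4 libraries (26549 cells in the whole series). The 3–5 d libraries were left out, since genes of ribosomal RNA held 0.0234% (chinmoST) and 0.0148% (WT) of the UMIs of kept cells in them, against 0.632 to 1.06% in the 4 later libraries.

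The chinmoST flies carry a mutation that lowers chinmo, a transcription factor downstream of JAK-STAT signalling, in the somatic cyst lineage. The labels give their strain as ChinmoST and their genotype as Sod1[X-39] e[1] over the balancer TM3 with Sb[1] and Ser[1], while the WT flies were Oregon R with the genotype label Wild-type. All flies were raised at 25 °C, testes of many males were pooled for each library, and spermatids were filtered out of the cell suspension, so spermatid numbers are those that passed the filter. With 1 library per genotype and age, an age difference within a genotype cannot be told apart from a difference between libraries.

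In the testis, germline stem cells divide at the apex and their daughters become spermatogonia, spermatocytes, which grow and transcribe the sperm genes before meiosis, and then spermatids. Cyst stem cells give rise to cyst cells, which enclose each group of germ cells and differentiate with it. At the base, somatic cells and the terminal epithelium hold the spermatid bundles before release, and pigment cells form the outer sheath of the organ. Secreted proteins, ribosomes, detoxifying enzymes and hormone signals are unevenly spread over these cell types, so their genes were grouped into lists by role.

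The 4 libraries had between 3273 and 4399 kept cells and between 24746443 and 35290155 unique molecular identifiers (UMIs, 1 per captured RNA molecule) in them. The median UMI count per cell was 1865 at 9–11 d and 1990 at 6–8 d in chinmoST testes, and 2372.5 and 3296 in WT testes, lower at the later age in both. Between 1 and 7 cell barcodes were shared by any pair of the 4 libraries. Of 36 markers of the types used, 26 were highest in their own type, 32 ranked first or second there, and 0 were at 0 UMIs in any library. Those that ranked lower were Six4 and Pdcd4 of intermediate cyst cells, CG3927 of late spermatocytes and bol of early spermatids. In cyst stem cells, too few for a test here, chinmo stood at 2.78 CPM at 9–11 d against 87.4 CPM at 6–8 d in chinmoST testes, and 572 CPM against 679 CPM in WT testes, low in the mutant at both ages (CPM, a count scaled to 1e6 UMIs of the type in a library). Intermediate cyst cells had 35.9 CPM at 9–11 d and 24.4 CPM at 6–8 d in chinmoST, against 16.8 and 26.1 CPM in WT testes. Late cyst cells had 42.3 and 31.0 CPM in chinmoST and 16.9 and 54.7 CPM in WT testes. In neither of these cyst types was chinmo low in the mutant at both ages.

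Few genes differed between the ages in both genotypes. The genes called lower in the largest number of types included the scpr genes of secreted proteins. As a set they were most abundant in late cyst cells, the base of the testis and the terminal epithelium. At the base their summed share was higher at 9–11 d. The somatic cells at the base had the most genes past 2-fold in both genotypes, and 0 ribosomal protein genes were past 2-fold the same way in both genotypes in any type. UMIs were summed per library and type and tested by the quasi-likelihood F-test of edgeR with genotype and age as terms. The test called 199 of 68569 gene and type combinations at an adjusted p under 0.05, 60 higher and 139 lower at 9–11 d, for 157 genes. DESeq2 called 36 in the same design. edgeR takes part of its spread from the other genes of a type, so a small p does not show that both pairs moved alike. The design leaves 1 residual degree of freedom, and fits of any 3 of the 4 libraries, with age alone in the model, returned between 10 (WT 6–8 d left out) and 26 (WT 9–11 d left out) of these 199 calls.

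Each genotype was also described by size alone, because 1 library against 1 library allows no test. A gene counted as past 2-fold in a genotype when its log2 ratio of 9–11 d over 6–8 d was 1 or more in size, its higher library held at least 20 UMIs and the 95% counting interval of the ratio left out 0. It counted as past 2-fold in only one genotype when the other genotype's log2 ratio was under 0.5 in size with an interval within -1 and 1. Over 50401 combinations measurable in both genotypes, 200 were past 2-fold the same way (27 higher and 173 lower, 185 genes). Another 798 were past it in chinmoST only, 732 in WT only, and 172 in opposite ways (0.341%). Opposite moves against same-way moves numbered 52 against 2 in early spermatids, 33 against 6 in pigment cells and 34 against 113 at the base. They were 24 against 22 in the male gonad associated epithelium, and 0 to 8 against 2 to 17 in the other types. The Pearson correlation of the genotypes' log2 ratios across genes lay between -0.41 (pigment cells) and 0.31 (base cells). Whether an age difference differs between the genotypes was not tested, since it cannot be with 1 library per genotype and age, and cell types of a library share that library, so a gene that recurs across types is not seen independently in each.

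**Figure D1:**
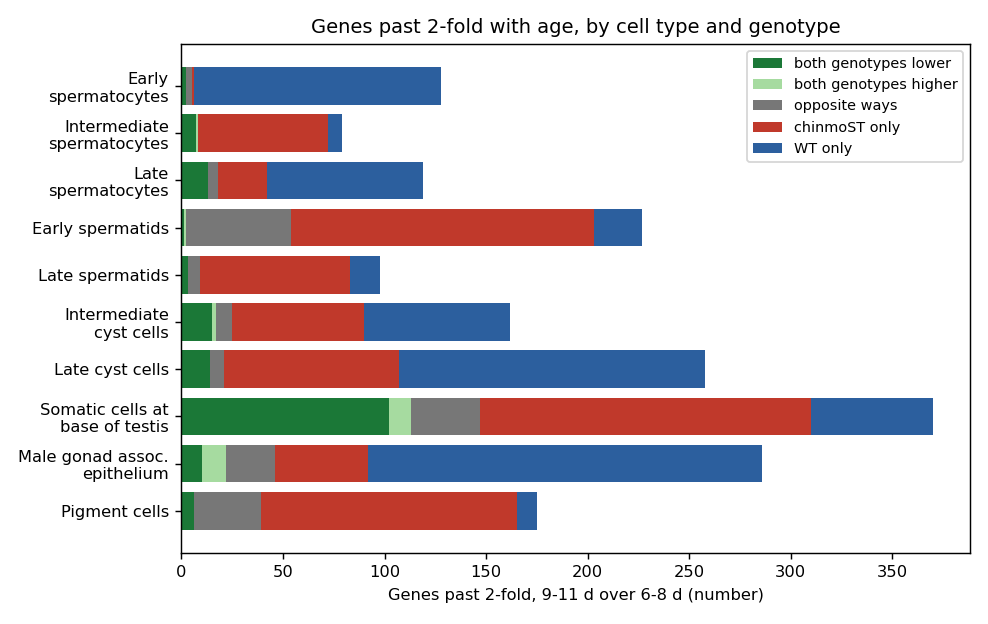
Number of genes past 2-fold between 9–11 d and 6–8 d in each of the 10 cell types, split by whether they moved the same way in both genotypes, in chinmoST only, in WT only or in opposite ways. The somatic cells at the base of the testis hold 113 of the 200 genes that moved the same way.

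**Figure D2:**
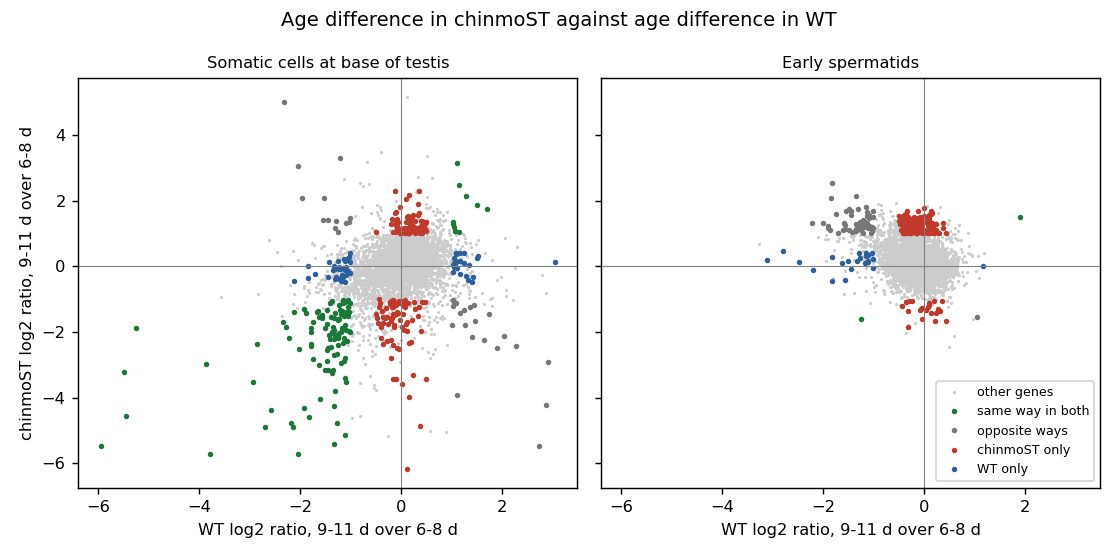
Log2 ratio of 9–11 d over 6–8 d in chinmoST testes (vertical axis) against the same ratio in WT testes (horizontal axis), 1 dot per gene, in the cell types named above the panels. Coloured dots are genes past 2-fold the same way, in 1 genotype only or in opposite ways, and grey dots are the other genes.

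A set of 10 genes was called lower at 9–11 d in 3 or more cell types. The widest were scpr-A, scpr-B and scpr-C, which encode secreted proteins with an SCP domain and were called in 5 types each. CG32457, CG13946 and CG12506 were called in 4 types each, and CG13947, CG12111, CG6628 and CG42827 in 3 each. The 3 scpr genes lie beside each other on 3R (dm6, 3R:11225520-11226681 for scpr-C, 3R:11240041-11240991 for scpr-B and 3R:11241183-11242120 for scpr-A). CG12506, CG13946 and CG13947 lie beside each other on 2L (2L:773547-774017, 2L:776536-776941 and 2L:779173-779655). The scpr genes are paralogs, so the split of reads between them is uncertain. The set was formed after the calls were seen, and its values are a description.

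The genes were most abundant in the late somatic types. Their summed share of UMIs was 13.3% at 9–11 d against 13.9% at 6–8 d in chinmoST testes, and 12.3% against 12.5% in WT testes in late cyst cells. In the somatic cells at the base it was 29.5% at 9–11 d against 25.1% at 6–8 d in chinmoST testes, and 31.7% against 24.3% in WT testes. These shares are of similar size at both ages in late cyst cells and higher at 9–11 d at the base, where 10 of 10 genes had a higher level in both genotypes and 0 of 10 were called lower. CG32457 there had 20701 CPM at 9–11 d against 9892 CPM at 6–8 d in chinmoST testes, and 13599 CPM against 6462 CPM in WT testes (edgeR's adjusted p = 0.0768, past 2-fold higher in both genotypes but not called).

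The calls were in types that hold little of these transcripts. In late spermatocytes the summed share was 0.0823% at 9–11 d against 0.199% at 6–8 d in chinmoST testes, and 0.148% against 0.416% in WT testes, lower at the later age in both genotypes. All 10 genes were called lower there. The level of scpr-B in that type was 131 CPM at 9–11 d against 338 CPM at 6–8 d in chinmoST testes, and 453 CPM against 1098 CPM in WT testes (log2 fold change -1.32 ± 0.05, SE over the 2 pairs, adjusted p = 2.66e-14). That of CG32457 was 16.8 CPM at 9–11 d against 44.5 CPM at 6–8 d in chinmoST testes, and 15.1 CPM against 144 CPM in WT testes (log2 fold change -2.47 ± 0.92, SE over the 2 pairs, adjusted p = 2.7e-10). For scpr-B the WT 9–11 d value lies above the chinmoST 6–8 d value, so the ages overlap across genotypes while they separate within each. In intermediate cyst cells the summed share was 0.132% at 9–11 d against 0.567% at 6–8 d in chinmoST testes, and 0.162% against 0.32% in WT testes. There 9 of the 10 were called lower.

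In intermediate spermatocytes the summed share was 0.0355% at 9–11 d against 0.0692% at 6–8 d in chinmoST testes, and 0.0506% against 0.191% in WT testes. The 3 scpr genes were called there, scpr-A with 39.7 CPM at 9–11 d against 143 CPM at 6–8 d in chinmoST testes, and 64.0 CPM against 290.4 CPM in WT testes (log2 fold change -2.07 ± 0.18, SE over the 2 pairs, adjusted p = 0.00042). Early spermatids differed between genotypes. Their summed share was 0.0322% at 9–11 d against 0.0367% at 6–8 d in chinmoST testes, and 0.0224% against 0.0874% in WT testes. Although edgeR called all 10 genes lower, only 5 of 10 had a lower level in chinmoST testes against 10 of 10 in WT testes. The male gonad associated epithelium had the other pattern, with a summed share of 0.185% at 9–11 d against 1.06% at 6–8 d in chinmoST testes, and 0.4% against 0.469% in WT testes. The fall there was mostly in chinmoST testes. Early spermatocytes (0.103% against 0.0999% in chinmoST and 0.049% against 0.228% in WT) and late spermatids (0.0212% against 0.0315% in chinmoST and 0.0186% against 0.0733% in WT) had a lower share mainly in WT testes, with 0 of the 10 genes called by edgeR in either.

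**Figure D3:**
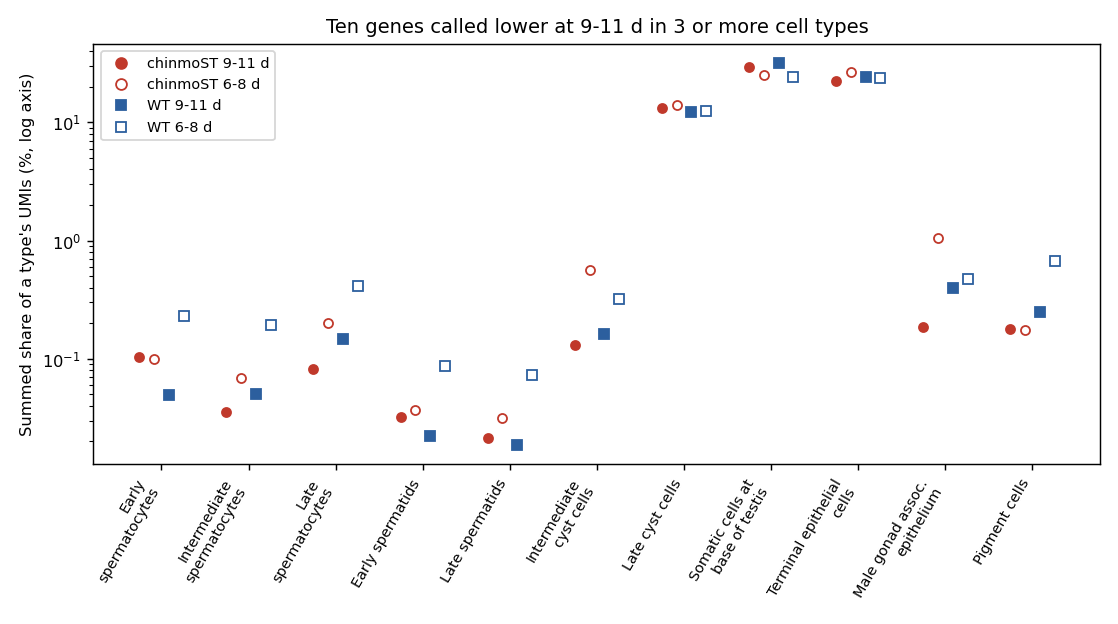
Summed share of a cell type's UMIs (percent, log axis) held by the 10 genes called lower in 3 or more types, 1 point per library. Late cyst cells, base cells and terminal epithelial cells sit above 10% in all 4 libraries, and the other types drawn below 2% with filled 9–11 d points mostly under the open 6–8 d points.

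The makeup of the 3 scpr transcripts gives another measure of the same reads. Of all scpr UMIs of late cyst cells, scpr-A held 29.2% (29.0 to 29.4%) at 9–11 d and 29.9% (29.7 to 30.01%) at 6–8 d in chinmoST testes, and 20.1% (19.98 to 20.2%) and 20.1% (19.9 to 20.1%) in WT testes (95% exact binomial intervals, counting error only). In late spermatocytes of the same libraries it held 29.2% (26.3 to 32.1%) and 29.96% (28.2 to 31.8%) in chinmoST testes, and 21.1% (19.6 to 22.6%) and 19.2% (18.4 to 19.9%) in WT testes. Intermediate cyst cells differed from late cyst cells in both genotypes, and the base cells mainly in chinmoST testes. In intermediate cyst cells scpr-A held 22.9% (20.9 to 25.0%) and 24.2% (23.5 to 24.9%) in chinmoST testes, and 14.8% (13.8 to 15.9%) and 18.3% (17.6 to 19.1%) in WT testes. At the base it held 23.8% (23.5 to 24.03%) and 27.9% (27.7 to 28.1%) in chinmoST testes, and 20.1% (19.9 to 20.2%) and 20.9% (20.7 to 21.0%) in WT testes. Over the 10 types and libraries with at least 100 scpr UMIs, the share lay between 22.4 and 31.9% in chinmoST testes and reached 26.4% in WT testes, so the ranges of the genotypes overlap.

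Over all kept cells the 10 genes held 1.497% at 9–11 d against 3.09% at 6–8 d in chinmoST testes, and 3.57% against 3.76% in WT testes. Over all barcodes they held 0.407% at 9–11 d against 0.696% at 6–8 d in chinmoST testes, and 1.15% against 1.26% in WT testes. The share was thus lower at 9–11 d in the library as a whole too, by more in chinmoST testes. Late cyst, base and terminal epithelial cells together supplied 7.71% of kept UMIs at 9–11 d against 16% at 6–8 d in chinmoST testes. In WT testes they supplied 20.6% against 23.2%. The part of this makeup in the lower share was not tested. RNA released by other cells can enter a droplet, and its part in the lower values of the types that hold little of these transcripts was not tested.

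The somatic cells at the base of the testis had the largest number of genes past 2-fold in both genotypes. Genes that fell there included ImpL2, a secreted antagonist of insulin-like peptides, fru, a transcription factor of the sex determination pathway, Thor, the translational repressor 4E-BP, and GstE3, a glutathione S-transferase. The carbonic anhydrase gene CAH5 and the tetraspanin gene Tsp42Eg rose. edgeR called 23 of 5826 genes tested (0.395%), 3 higher and 20 lower, and DESeq2 called 20. Of 3973 measurable genes, 113 were past 2-fold the same way in both genotypes (2.84%), 163 in chinmoST only (4.1%) and 60 in WT only (1.51%). Of the genes that moved the same way, 102 were lower (2.57%). The sums come from 26 cells at 9–11 d and 91 at 6–8 d in chinmoST testes, and 65 and 112 in WT testes, so the chinmoST 9–11 d library gives the least precise values. At 9–11 d a count of 3 UMIs equals 5.25 CPM in chinmoST and 2.94 CPM in WT testes, so levels of about this size rest on few UMIs.

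ImpL2 stood at 8.74 CPM at 9–11 d against 288 CPM at 6–8 d in chinmoST testes, and 15.7 CPM against 104 CPM in WT testes (log2 fold change -3.68 ± 1.10, SE over the 2 pairs, adjusted p = 0.0139). Both 9–11 d values lie below both 6–8 d values. For fru the level was 14.0 CPM at 9–11 d against 410.2 CPM at 6–8 d in chinmoST testes, and 97.9 CPM against 444 CPM in WT testes (log2 fold change -3.17 ± 1.31, SE over the 2 pairs, adjusted p = 0.0203), again with no overlap between the ages. Gadd45, a stress-induced growth arrest gene, had 10.49 CPM at 9–11 d against 131 CPM at 6–8 d in chinmoST testes, and 10.8 CPM against 85.5 CPM in WT testes (log2 fold change -3.26 ± 0.30, SE over the 2 pairs, adjusted p = 0.0139). Its level was alike in the 2 libraries of each age. CG14456 had 15.7 CPM at 9–11 d against 155 CPM at 6–8 d in chinmoST testes, and 0.979 CPM against 65.4 CPM in WT testes (log2 fold change -4.02 ± 1.13, SE over the 2 pairs, adjusted p = 0.0139).

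The gene E23 encodes an ABC transporter induced by ecdysone, and its level was 14.0 CPM at 9–11 d against 77.1 CPM at 6–8 d in chinmoST testes, and 8.81 CPM against 67.2 CPM in WT testes (log2 fold change -2.70, adjusted p = 0.0203). The Hox gene abd-A had 10.49 CPM at 9–11 d against 80.2 CPM at 6–8 d in chinmoST testes, and 20.6 CPM against 70.6 CPM in WT testes (log2 fold change -2.22, adjusted p = 0.0428). GstE3 had 57.7 CPM at 9–11 d against 529 CPM at 6–8 d in chinmoST testes, and 197 CPM against 562 CPM in WT testes (log2 fold change -2.27, adjusted p = 0.0289). In all 3 the ages separate, and for abd-A and GstE3 the fall was steeper in chinmoST testes. Lst, the gene of a hormone that lowers insulin release, had 68.2 CPM at 9–11 d against 379 CPM at 6–8 d in chinmoST testes, and 73.4 CPM against 194 CPM in WT testes (log2 fold change -1.92, adjusted p = 0.0346). Thor had 318 CPM at 9–11 d against 905 CPM at 6–8 d in chinmoST testes, and 259.5 CPM against 569 CPM in WT testes (log2 fold change -1.32, adjusted p = 0.0453). ImpL2, Lst and Thor thus were all lower without overlap.

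Among the other called genes, the tyrosine kinase gene Abl had 35.0 CPM at 9–11 d against 154 CPM at 6–8 d in chinmoST testes, and 63.7 CPM against 173 CPM in WT testes (log2 fold change -1.75, adjusted p = 0.0453). The zinc finger gene peb had 64.7 CPM at 9–11 d against 288 CPM at 6–8 d in chinmoST testes, and 124 CPM against 298 CPM in WT testes (log2 fold change -1.67, adjusted p = 0.0453). The Krüppel-like factor gene luna had 139.9 CPM at 9–11 d against 708 CPM at 6–8 d in chinmoST testes, and 294 CPM against 653 CPM in WT testes (log2 fold change -1.72, adjusted p = 0.0428). CG8665, used as a marker of late cyst cells, had 17.5 CPM at 9–11 d against 136 CPM at 6–8 d in chinmoST testes, and 94.0 CPM against 260 CPM in WT testes (log2 fold change -2.04, adjusted p = 0.0453). These 4 genes were lower at 9–11 d in both genotypes without overlap.

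CG6429 and dpr15, which encodes a neuronal immunoglobulin-domain protein, were at 0 UMIs in both 9–11 d libraries. CG6429 had 0 UMIs at 9–11 d against 49 UMIs at 6–8 d in chinmoST testes, and 0 UMIs against 52 UMIs in WT testes, which with a floor of 3 counts per library is at least 7.27-fold lower in chinmoST and at least 10.2-fold lower in WT testes. For dpr15 the counts were 0 UMIs at 9–11 d against 26 UMIs at 6–8 d in chinmoST testes, and 0 UMIs against 37 UMIs in WT testes. By the same floor it was at least 3.86-fold lower in chinmoST and at least 7.23-fold lower in WT testes. Cpr97Eb, a cuticle protein gene, had 0 UMIs at 9–11 d against 59 UMIs at 6–8 d in chinmoST testes, and 2 UMIs against 58 UMIs in WT testes. edgeR's adjusted p was 0.0203 for CG6429, 0.0346 for dpr15 and 0.0203 for Cpr97Eb.

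In the other direction CAH5 had 2688 CPM at 9–11 d against 612 CPM at 6–8 d in chinmoST testes, and 180.2 CPM against 73.5 CPM in WT testes (log2 fold change 1.74 ± 0.42, SE over the 2 pairs, adjusted p = 0.0203). Tsp42Eg had 579 CPM at 9–11 d against 104 CPM at 6–8 d in chinmoST testes, and 37.2 CPM against 16.6 CPM in WT testes (log2 fold change 1.93 ± 0.66, SE over the 2 pairs, adjusted p = 0.0475). Both were higher at 9–11 d within each genotype, while the chinmoST 6–8 d values exceed the WT 9–11 d values. With age alone in the model and the chinmoST 9–11 d library left out, which breaks the pairing, the log2 fold change was -0.86 for CAH5 and -0.61 for Tsp42Eg. CG8399, called higher with 133 CPM at 9–11 d against 15.6 CPM at 6–8 d in chinmoST testes, and 1.96 CPM against 0.574 CPM in WT testes, rests on 1 and 2 UMIs in WT libraries.

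**Figure D4:**
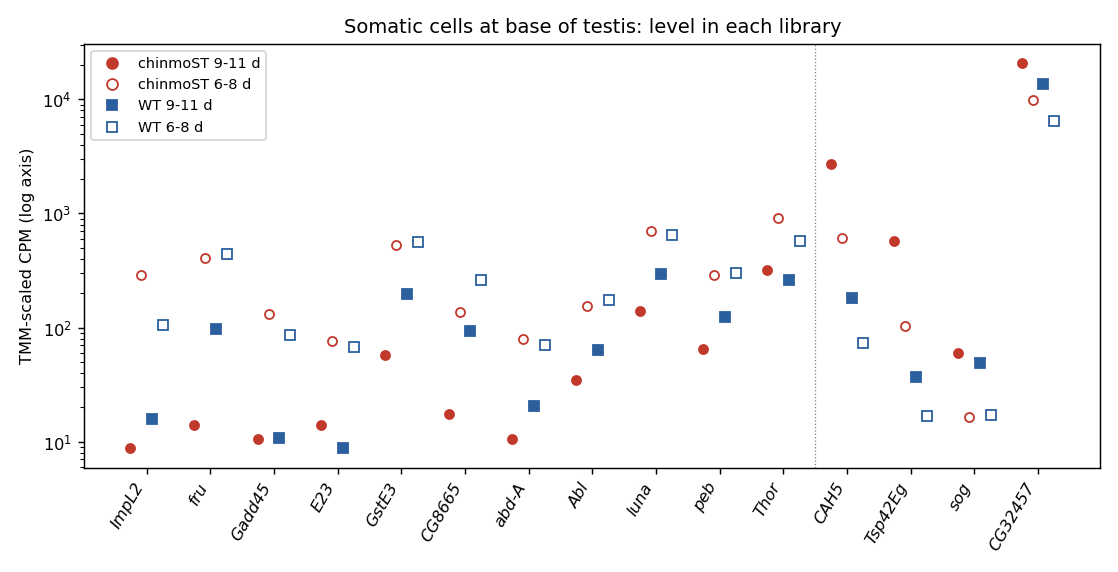
Level of genes of the somatic cells at the base of the testis in each of the 4 libraries (CPM scaled by trimmed mean, log axis). Filled symbols are 9–11 d and open symbols 6–8 d, and genes left of the dotted line were called lower. To its right CAH5 and Tsp42Eg were called higher, and sog and CG32457 were past 2-fold higher without a call. ImpL2 sits at 8.74 and 15.7 CPM at 9–11 d, under 288 and 104 CPM at 6–8 d.

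Other genes, picked after their values were seen, were past 2-fold lower in both genotypes without being called. Socs36E, an inhibitor of JAK-STAT signalling, had 15.7 CPM at 9–11 d against 147 CPM at 6–8 d in chinmoST testes, and 27.4 CPM against 70.6 CPM in WT testes (log2 fold change -2.16, adjusted p = 0.0587). Mkp3, a phosphatase of the ERK kinase, had 12.2 against 60.7 CPM in chinmoST and 18.6 against 50.5 CPM in WT. Hnf4, a nuclear receptor of lipid metabolism, had 43.7 against 118 CPM in chinmoST and 25.5 against 95.3 CPM in WT. The receptor gene Egfr and the FGF ligand gene pyr were at 0 UMIs in the chinmoST 9–11 d library, and Egfr had 0 UMIs at 9–11 d against 22 UMIs at 6–8 d in chinmoST testes, and 5 UMIs against 35 UMIs in WT testes. The BMP antagonist gene sog was higher, with 59.5 against 16.3 CPM in chinmoST and 49.0 against 17.2 CPM in WT (log2 fold change 1.67, adjusted p = 0.0854).

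By list, 4 of 24 measurable genes of oxidative stress and detoxification were past 2-fold lower in both genotypes and 1 was called, beside 2.57% and 0.395% of all genes. Of the immediate early and stress response genes, 3 of 12 were past 2-fold lower in both and 2 were called. Of 12 genes of insulin, nutrient and growth control, 2 were past 2-fold lower in both and 2 were called. Their median log2 ratios were -0.60 in chinmoST and -0.30 in WT testes for the first list. They were -0.40 in chinmoST and -0.24 in WT testes for the second, and for the immediate early list -0.21 in chinmoST and -0.84 in WT testes, beside medians over all measurable genes of -0.01 in chinmoST and -0.003 in WT testes. In chinmoST only, 8 of 33 proteasome subunit genes and 8 of 14 genes of the mitochondrial genome were past 2-fold higher, among 81 such genes in all (2.04% of measurable genes).

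Markers of the terminal epithelium and the male gonad associated epithelium differed between the ages mainly in chinmoST testes. Those of hemocytes and of the cyst lineage were lower at 9–11 d in both genotypes. The 3 terminal epithelium markers summed to 820.2 CPM at 9–11 d against 169 CPM at 6–8 d in chinmoST testes, and 35.3 CPM against 32.1 CPM in WT testes. The 2 markers of the male gonad associated epithelium summed to 38316 CPM at 9–11 d against 23067 CPM at 6–8 d in chinmoST testes, and 3815 CPM against 4453 CPM in WT testes. Hemocyte markers (4 genes) summed to 5.25 CPM at 9–11 d against 72.4 CPM at 6–8 d in chinmoST testes, and 48.0 CPM against 103 CPM in WT testes. Cyst lineage markers (14 genes) summed to 500 against 721 CPM in chinmoST and 625 against 942 CPM in WT testes, with 1 called lower. Hub cell markers (7 genes) summed to 1287 against 1293 CPM in chinmoST and 956 against 1150 CPM in WT testes. The part of these cells in the results was not tested. Of the 23 called genes, 1 had a level in the base cells under 10% of that in its highest type, beside 27.5% of all tested genes.

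In the male gonad associated epithelium, a somatic type marked by CG18628 and the metallothionein gene MtnA, the glutathione S-transferase genes GstD3 and GstS1 and the odorant-binding protein gene Obp99a fell, and CG18628 and MtnA themselves rose slightly. edgeR called 42 of 5543 genes tested (0.758%), 20 higher and 22 lower, while DESeq2 called 0 and edgeR called 2 when cells were held to a common minimum of 2105 UMIs. Of 3381 measurable genes, 22 were past 2-fold the same way in both genotypes (0.651%), 46 in chinmoST only (1.36%) and 194 in WT only (5.74%). Another 24 were past it in opposite ways, more than moved the same way. Of the called genes, 20 had a level here under 10% of that in their highest type, beside 35.6% of all tested genes.

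CG18628, the most abundant of the named transcripts, had 368630 CPM at 9–11 d against 312470 CPM at 6–8 d in chinmoST testes, and 485310 CPM against 421160 CPM in WT testes. It was called higher with a log2 fold change of 0.22. MtnA had 76220 CPM at 9–11 d against 68391 CPM at 6–8 d in chinmoST testes, and 54935 CPM against 45853 CPM in WT testes (log2 fold change 0.21 ± 0.05, SE over the 2 pairs, adjusted p = 2.33e-23). For CG18628 the ages separate within each genotype only. The translation elongation factor gene eEF1alpha1 had 4483 CPM at 9–11 d against 3219 CPM at 6–8 d in chinmoST testes, and 3236 CPM against 2427 CPM in WT testes (log2 fold change 0.45 ± 0.03, SE over the 2 pairs, adjusted p = 0.00434), with the WT 9–11 d and the chinmoST 6–8 d values nearly equal. Without the WT 6–8 d library the log2 fold change of MtnA was -0.0647, and without the chinmoST 9–11 d library it was -0.0528, both with age alone in the model.

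GstD3 had 5.91 CPM at 9–11 d against 106 CPM at 6–8 d in chinmoST testes, and 7.81 CPM against 20.4 CPM in WT testes (log2 fold change -2.96 ± 1.37, SE over the 2 pairs, adjusted p = 7.83e-06). It fell past 2-fold in each genotype without overlap between the ages. GstS1 had 216 CPM at 9–11 d against 998 CPM at 6–8 d in chinmoST testes, and 350.5 CPM against 655 CPM in WT testes (log2 fold change -1.55, adjusted p = 2.65e-08). Obp99a had 32.1 CPM at 9–11 d against 621 CPM at 6–8 d in chinmoST testes, and 233 CPM against 458 CPM in WT testes (log2 fold change -2.52, adjusted p = 3.2e-13). Both fell by more in chinmoST testes. The fatty acid binding protein gene fabp had 643 CPM at 9–11 d against 1533 CPM at 6–8 d in chinmoST testes, and 311 CPM against 565 CPM in WT testes (log2 fold change -1.06, adjusted p = 8.01e-05). GstD3, GstS1, Obp99a and fabp are all higher in cyst cells than here, at 1.61%, 1.16%, 1.16% and 9.65% of their highest type. Over the whole list of oxidative stress and detoxification, 2 of 21 measurable genes were past 2-fold lower in both genotypes, 2 were called lower and 1 higher. The list's median log2 ratio was -0.07 in chinmoST and -0.14 in WT testes, and its summed level, to which MtnA belongs, was 80759 CPM at 9–11 d against 73898 CPM at 6–8 d in chinmoST testes, and 58968 CPM against 50570 CPM in WT testes.

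Tsf1, BomT2 and vir-1, picked after their values were seen, were highest in the chinmoST 9–11 d library. The list of antimicrobial peptides and immune genes as a whole had 5 of 9 measurable members higher in chinmoST and 6 in WT testes, with a median log2 ratio of 0.09 in chinmoST and 0.34 in WT testes. Tsf1, the iron-binding transferrin induced on infection, had 9088 CPM at 9–11 d against 849 CPM at 6–8 d in chinmoST testes, and 267 CPM against 550.1 CPM in WT testes, higher at the later age in chinmoST and lower in WT testes. BomT2, a bomanin of the Toll response, had 409 CPM at 9–11 d against 70.5 CPM at 6–8 d in chinmoST testes, and 0 CPM against 2.04 CPM in WT testes. The virus-induced gene vir-1 had 3824 CPM at 9–11 d against 1626 CPM at 6–8 d in chinmoST testes, and 1047 CPM against 832 CPM in WT testes (log2 fold change 0.78, adjusted p = 1.89e-05). edgeR called Tsf1 higher (adjusted p = 1.85e-12) although its ratios were 3.42 in chinmoST and -1.04 in WT testes on the log2 scale, so a call here does not mean that both pairs moved alike. Without the chinmoST 9–11 d library the log2 fold change of vir-1 was -0.23.

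Among the 12 genes past 2-fold higher in both genotypes were ergic53, jagn and LanB1, picked after their values were seen. The cargo receptor gene ergic53 had 106 against 47.3 CPM in chinmoST and 111 against 54.1 CPM in WT (log2 fold change 1.10, adjusted p = 0.21). The endoplasmic reticulum gene jagn had 24.5 against 11.6 CPM in chinmoST and 19.5 against 7.14 CPM in WT, and the laminin gene LanB1 had 22.8 against 10.52 CPM in chinmoST and 52.7 against 15.3 CPM in WT. None of the 3 was called. In WT only, 96 genes were higher and 98 lower, and 63 of those lower had under 10% of the level of their highest type, early spermatids for 41 of them. Proteasome subunit genes had a median log2 ratio of 0.11 in chinmoST and -0.60 in WT testes, with 23 of 38 higher in chinmoST and 1 in WT testes.

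Among cyst cells, which enclose the germ cells, the called genes of the late ones included lncRNA:Hsromega, lncRNA:roX1 and genes highest in spermatocytes, with the larger fall mostly in WT testes. edgeR called 13 of 8529 genes tested (0.152%), all lower, and DESeq2 called 0. Of 6502 measurable genes, 14 were past 2-fold the same way in both genotypes (0.215%), 86 in chinmoST only (1.32%) and 151 in WT only (2.32%). Of those in WT only, 149 were lower (2.29%).

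lncRNA:Hsromega, a nuclear RNA that organizes stress bodies, had 33.4 CPM at 9–11 d against 28.6 CPM at 6–8 d in chinmoST testes, and 21.0 CPM against 475 CPM in WT testes (log2 fold change -2.61 ± 2.36, SE over the 2 pairs, adjusted p = 1.05e-09). The WT 6–8 d library alone is high, and the other 3 values lie close together, so the call rests on that library. lncRNA:roX1, an RNA of the male dosage compensation complex, had 1.55 CPM at 9–11 d against 3.09 CPM at 6–8 d in chinmoST testes, and 3.93 CPM against 22.5 CPM in WT testes (log2 fold change -2.27, adjusted p = 0.00861), with the same library high. These were 2 of 8 tested members of the list of dosage compensation and nuclear RNAs, whose median log2 ratio over 4 measurable members was 0.06 in chinmoST and 0.14 in WT testes. In intermediate cyst cells lncRNA:Hsromega was lower in both genotypes, with 273 CPM at 9–11 d against 1138 CPM at 6–8 d in chinmoST testes, and 30.9 CPM against 61.5 CPM in WT testes (log2 fold change -1.61 ± 0.53, SE over the 2 pairs, adjusted p = 0.00106), and there it was high in chinmoST at 6–8 d. Without that library its log2 fold change was 1.28.

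Vha16-5, a proteolipid subunit gene of the vacuolar ATPase, had 14.0 CPM at 9–11 d against 21.2 CPM at 6–8 d in chinmoST testes, and 2.10 CPM against 19.6 CPM in WT testes in late cyst cells (log2 fold change -1.83, adjusted p = 0.00681). Its paralog Vha16-3 had 12.4 CPM at 9–11 d against 21.2 CPM at 6–8 d in chinmoST testes, and 1.83 CPM against 12.9 CPM in WT testes (log2 fold change -1.68, adjusted p = 0.0343). CG34029 had 4.66 CPM at 9–11 d against 14.3 CPM at 6–8 d in chinmoST testes, and 5.50 CPM against 24.3 CPM in WT testes (log2 fold change -1.97 ± 0.30, SE over the 2 pairs, adjusted p = 0.00398), past 2-fold in both genotypes. All 3 were highest in intermediate spermatocytes. Of the 13 called genes, 10 had under 10% of the level of their highest type, which was intermediate spermatocytes for 7, beside 23.6% of all tested genes. The spermatocyte markers (10 genes) summed to 130.4 CPM at 9–11 d against 149.8 CPM at 6–8 d in chinmoST testes, and 48.2 CPM against 149.9 CPM in WT testes. The meiotic arrest genes had a median log2 ratio of -0.10 in chinmoST and -1.46 in WT testes. Their part in the result was not tested.

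Intermediate cyst cells had 18 of 9114 genes tested (0.197%) called, 4 higher and 14 lower, with 7 by DESeq2. Of 7569 measurable genes, 17 were past 2-fold the same way in both genotypes (0.225%), 65 in chinmoST only (0.859%) and 72 in WT only (0.951%). Most of the genes called lower belonged to the recurring set above. CG42870 had 1.40 CPM at 9–11 d against 30.7 CPM at 6–8 d in chinmoST testes, and 4.77 CPM against 18.5 CPM in WT testes (log2 fold change -2.74 ± 1.16, SE over the 2 pairs, adjusted p = 0.00916). CAH5 had 0 UMIs at 9–11 d against 14 UMIs at 6–8 d in chinmoST testes, and 0 UMIs against 58 UMIs in WT testes, at least 16.2-fold lower in WT against a floor of 3 counts. Of the higher ones, CG30197 had 113 CPM at 9–11 d against 31.3 CPM at 6–8 d in chinmoST testes, and 3.76 CPM against 0.843 CPM in WT testes (log2 fold change 1.88 ± 0.10, SE over the 2 pairs, adjusted p = 0.00504). babos had 55.5 CPM at 9–11 d against 16.7 CPM at 6–8 d in chinmoST testes, and 4.27 CPM against 1.05 CPM in WT testes (log2 fold change 1.78, adjusted p = 0.0329), and both rested on few UMIs in WT libraries (15 and 4 for CG30197). Without the chinmoST 9–11 d library the log2 fold change was -2.06 for CG30197 and -1.01 for babos. Of the 18 called genes, 17 had under 10% of the level of their highest type, beside 14.0% of all tested genes.

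In spermatocytes the called changes outside the recurring set above were mostly under 2-fold. Late spermatocytes had 52 of 8040 genes tested (0.647%) called, of which 46 lower (0.572%), and 5 by DESeq2. Of 6596 measurable genes, 13 were past 2-fold the same way in both genotypes (0.197%), 24 in chinmoST only (0.364%) and 77 in WT only (1.17%). Exo70, a subunit of the exocyst that tethers secretory vesicles, had 4.59 CPM at 9–11 d against 18.0 CPM at 6–8 d in chinmoST testes, and 1.51 CPM against 7.47 CPM in WT testes (log2 fold change -2.06 ± 0.10, SE over the 2 pairs, adjusted p = 0.0282). The nuclear pore gene Nup50 had 8.67 CPM at 9–11 d against 23.99 CPM at 6–8 d in chinmoST testes, and 4.52 CPM against 13.8 CPM in WT testes (log2 fold change -1.52 ± 0.05, SE over the 2 pairs, adjusted p = 0.0281). Both were past 2-fold lower in each genotype, on 9 UMIs at 9–11 d against 36 UMIs at 6–8 d in chinmoST testes, and 3 UMIs against 27 UMIs in WT testes for Exo70.

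Sec61alpha, the channel subunit of the endoplasmic reticulum translocon, had 32.6 CPM at 9–11 d against 59.5 CPM at 6–8 d in chinmoST testes, and 13.1 CPM against 28.5 CPM in WT testes (log2 fold change -0.97, adjusted p = 0.0255). The small heat shock protein gene Hsp26 had 797 CPM at 9–11 d against 959 CPM at 6–8 d in chinmoST testes, and 281 CPM against 395 CPM in WT testes (log2 fold change -0.37, adjusted p = 0.0281). Act5C, a cytoplasmic actin gene, had 162 CPM at 9–11 d against 289 CPM at 6–8 d in chinmoST testes, and 179 CPM against 242 CPM in WT testes (log2 fold change -0.63, adjusted p = 0.000275). The caspase regulator gene soti, transcribed late in spermatogenesis, was called higher with 1322 CPM at 9–11 d against 906 CPM at 6–8 d in chinmoST testes, and 1439.8 CPM against 1253 CPM in WT testes (log2 fold change 0.37, adjusted p = 0.0262). Within each genotype these 4 moved by less than 2-fold apart from Sec61alpha in WT. The ages overlap across genotypes for Sec61alpha and Hsp26, and do not for Act5C and soti. The log2 fold change of Hsp26 was 0.23 without the WT 9–11 d library and 0.44 without the chinmoST 6–8 d library.

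Early spermatocytes had 4 of 7569 genes tested (0.0528%) called, and DESeq2 called 0. Of 4860 measurable genes, 2 were past 2-fold the same way in both genotypes (0.0412%), 1 in chinmoST only (0.0206%) and 122 in WT only (2.51%). The WT sums rest on 79 cells at 9–11 d and 102 at 6–8 d. Prx6c, a peroxiredoxin gene, was past 2-fold lower in both genotypes, with 15.6 CPM at 9–11 d against 37.2 CPM at 6–8 d in chinmoST testes, and 14.6 CPM against 70.3 CPM in WT testes (log2 fold change -1.58, adjusted p = 0.195). The called pre-rRNA:CR45856, a transcript of the repeated ribosomal RNA genes whose reads cannot be placed surely, had 514 CPM at 9–11 d against 33.5 CPM at 6–8 d in chinmoST testes, and 2.92 CPM against 7.48 CPM in WT testes, on 1 and 5 UMIs in WT libraries.

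Intermediate spermatocytes had 5 of 6551 genes tested (0.0763%) called, all lower, and 2 by DESeq2. Of 5021 measurable genes, 8 were past 2-fold the same way in both genotypes (0.159%), 64 in chinmoST only (1.27%) and 7 in WT only (0.139%). Dso1, an immune-induced peptide gene, was past 2-fold lower in both, with 14.2 CPM at 9–11 d against 72.4 CPM at 6–8 d in chinmoST testes, and 3.88 CPM against 24.4 CPM in WT testes (log2 fold change -2.42, adjusted p = 0.0866). Bbd, which encodes a secreted protein of the same immune response, was called with 14.2 CPM at 9–11 d against 154 CPM at 6–8 d in chinmoST testes, and 1.94 CPM against 1.16 CPM in WT testes (log2 fold change -3.15, adjusted p = 0.0237), but its 2 WT libraries held 1 UMI each. CG18628 had 304 CPM at 9–11 d against 726 CPM at 6–8 d in chinmoST testes, and 491 CPM against 879 CPM in WT testes (log2 fold change -1.03 ± 0.21, SE over the 2 pairs, adjusted p = 0.0102), lower in both genotypes in a type with 0.171% of the level of the male gonad associated epithelium.

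Genes of cytoplasmic ribosomal proteins, the protein part of the ribosome, had a higher median at 9–11 d in spermatids of chinmoST testes and a lower one in those of WT testes, and a lower median in chinmoST pigment cells. In early spermatids edgeR called 42 of 8946 genes tested (0.469%), 25 of them higher (0.279%), and 17 of these were among the 86 ribosomal protein genes. DESeq2 called 2, and edgeR called 0 when cells were held to a common minimum of 2105 UMIs. Of 6875 measurable genes, 2 were past 2-fold the same way in both genotypes (0.0291%), 149 in chinmoST only (2.17%) and 24 in WT only (0.349%). Those in chinmoST only included 127 higher genes (1.85%), 51 of them ribosomal protein genes. Another 52 genes were past 2-fold in opposite ways, and 51 of these had under 10% of the level of their highest type, beside 33.8% of all tested genes.

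The median log2 ratio of the 85 measurable ribosomal protein genes was 1.19 in chinmoST and -0.19 in WT testes, beside -0.02 and -0.000812 over all genes. RpL18 had 159 CPM at 9–11 d against 49.7 CPM at 6–8 d in chinmoST testes, and 9.53 CPM against 12.1 CPM in WT testes (log2 fold change 0.78 ± 1.01, SE over the 2 pairs, adjusted p = 0.00792). RpL3 had 144 CPM at 9–11 d against 58.6 CPM at 6–8 d in chinmoST testes, and 19.4 CPM against 18.0 CPM in WT testes (log2 fold change 0.73 ± 0.59, SE over the 2 pairs, adjusted p = 0.00792). Both chinmoST values exceed both WT values. Rack1, a scaffold protein on the small ribosomal subunit, had 95.2 CPM at 9–11 d against 38.3 CPM at 6–8 d in chinmoST testes, and 18.1 CPM against 16.1 CPM in WT testes (log2 fold change 0.76, adjusted p = 0.0111), with the same order. edgeR called these genes higher although their WT ratios were near 0 or below it, -0.34 for RpL18, so the calls rest on the chinmoST pair. Without the chinmoST 9–11 d library and with age alone in the model, the log2 fold change was -1.68 for RpL18, -0.97 for RpL3 and -0.58 for Rack1.

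Late spermatids had 0 of 6028 genes tested (0.0%) called by edgeR and 0 by DESeq2, while 229 had an unadjusted p under 0.05 in edgeR. Of 4527 measurable genes, 3 were past 2-fold the same way in both genotypes (0.0663%), 74 in chinmoST only (1.63%) and 15 in WT only (0.331%). Those in chinmoST only included 48 higher genes (1.06%), of which 19 were ribosomal protein genes. The list's median log2 ratio was 1.00 in chinmoST and -0.29 in WT testes.

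**Figure D5:**
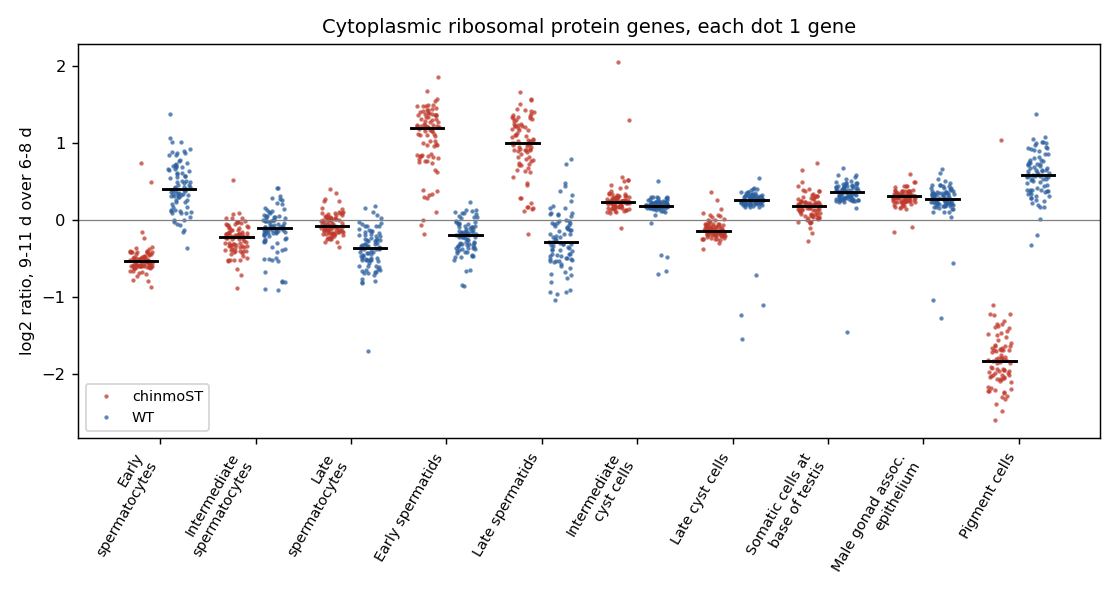
Log2 ratio of 9–11 d over 6–8 d of each measurable cytoplasmic ribosomal protein gene, chinmoST left of WT in each cell type, with black bars at the medians. The medians are 1.19 and -0.19 in early spermatids and -1.83 and 0.58 in pigment cells.

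Ribosomal protein genes held 1.81% at 9–11 d against 0.971% at 6–8 d in chinmoST testes, and 0.624% against 0.702% in WT testes of the UMIs of early spermatids. Over all kept cells they held 21.9% at 9–11 d against 13.6% at 6–8 d in chinmoST testes, and 6.14% against 5.32% in WT testes. Germline stem cells and spermatogonia, whose growth calls for many ribosomes, supplied a share of all kept UMIs of 36.7% at 9–11 d against 16.3% at 6–8 d in chinmoST testes, and 0.0784% against 0.0616% in WT testes. Of the 127 genes higher in chinmoST only in early spermatids, 122 had under 10% of the level of their highest type, which was germline stem cells and spermatogonia for 50, beside 33.8% of all tested genes. The part of RNA from other cells in these values was not tested.

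In 3 somatic types most ribosomal protein genes had a slightly higher level in both genotypes. These were 84 of 85 in chinmoST and 80 in WT testes in intermediate cyst cells, with medians of 0.24 in chinmoST and 0.19 in WT testes, and 81 of 83 in chinmoST and 80 in WT testes in the male gonad associated epithelium, with medians of 0.31 in chinmoST and 0.28 in WT testes. At the base they were 72 of 81 in chinmoST and 80 in WT testes, with medians of 0.18 in chinmoST and 0.36 in WT testes. None of these genes was called in those 3 types. In early spermatocytes the medians were -0.53 in chinmoST and 0.41 in WT testes. Late spermatocytes had 3 ribosomal protein genes called lower, with medians of -0.07 in chinmoST and -0.36 in WT testes. There 31 of 85 were higher at 9–11 d in chinmoST and 5 in WT testes.

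In early spermatids pre-rRNA:CR45856 was past 2-fold higher in both genotypes, with 20.4 CPM at 9–11 d against 7.15 CPM at 6–8 d in chinmoST testes, and 7.20 CPM against 1.91 CPM in WT testes (log2 fold change 1.70 ± 0.20, SE over the 2 pairs, adjusted p = 0.00181). The lowest 9–11 d value and the higher 6–8 d value are nearly equal. Genes of ribosomal RNA were also higher over all kept cells, with 1.06% of UMIs at 9–11 d against 0.852% at 6–8 d in chinmoST testes. In WT testes they held 0.746% against 0.632%, and the part of this library difference in the call was not tested. MtnA had 71.3 CPM at 9–11 d against 167 CPM at 6–8 d in chinmoST testes, and 41.3 CPM against 55.7 CPM in WT testes (log2 fold change -0.83, adjusted p = 0.000169) and was lower in both, by less than 2-fold in WT testes. The odorant-binding protein gene Obp44a had 178 CPM at 9–11 d against 186 CPM at 6–8 d in chinmoST testes, and 244 CPM against 492 CPM in WT testes (log2 fold change -0.56, adjusted p = 0.00792), and its fall was past 2-fold in WT only. Without the chinmoST 6–8 d library the log2 fold change of MtnA was 0.00854, and without the WT 6–8 d library that of Obp44a was 0.18.

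Pigment cells had 0 of 2423 genes tested (0.0%) called by edgeR and 0 by DESeq2, with 24 at an unadjusted p under 0.05. Of 1097 measurable genes, 6 were past 2-fold the same way in both genotypes (0.547%), 126 in chinmoST only (11.5%) and 10 in WT only (0.912%). Another 33 were past it in opposite ways. In chinmoST only, 111 genes were lower (10.1%), among them 25 ribosomal protein genes and 14 of 58 nuclear genes of oxidative phosphorylation. Dso1 had 7324 CPM at 9–11 d against 30851 CPM at 6–8 d in chinmoST testes, and 16223 CPM against 19577 CPM in WT testes, lower at the later age in both but past 2-fold in chinmoST only. The antibacterial peptide gene AttC moved in opposite ways, with 141 CPM at 9–11 d against 958 CPM at 6–8 d in chinmoST testes, and 382 CPM against 96.4 CPM in WT testes.

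Fat body and yolk genes (14 genes) summed to 794 CPM at 9–11 d against 23063 CPM at 6–8 d in chinmoST testes, and 3612 CPM against 2597 CPM in WT testes in pigment cells. The 2 pigment cell markers summed to 1752 CPM at 9–11 d against 8434 CPM at 6–8 d in chinmoST testes, and 5086 CPM against 3719.9 CPM in WT testes. Both sums were highest in the chinmoST 6–8 d library. Each library held between 42 and 52 pigment cells, and the part of other cells in the result was not tested.

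Genes past 2-fold in only one genotype recurred in at most 4 types. In chinmoST only, the glutathione S-transferase gene GstD1, Prx6c, CG32462 and Dso1 were lower in 3 types each. GstD1 had 493 CPM at 9–11 d against 1462 CPM at 6–8 d in chinmoST testes, and 1167 CPM against 1630.1 CPM in WT testes in the somatic cells at the base. In pigment cells it had 697 against 2512 CPM in chinmoST and 2675 against 1922 CPM in WT. Prx6c had 117 CPM at 9–11 d against 532 CPM at 6–8 d in chinmoST testes, and 1381 CPM against 1806 CPM in WT testes at the base, where WT levels were well above chinmoST levels at both ages. In WT only, CG4021 was lower in 4 types and CG34434, CG5399, CG33252, Obp44a, the cytochrome oxidase gene COX4L and CG42830 in 3 each. CG4021 had 20.2 CPM at 9–11 d against 22.8 CPM at 6–8 d in chinmoST testes, and 4.98 CPM against 30.4 CPM in WT testes in late cyst cells (log2 fold change -1.44, adjusted p = 0.0343), where the WT 9–11 d library is the low one.

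Stress and hormone lists showed few members that moved in both genotypes. Over the 10 types, the small heat shock proteins had 1 call, Hsp26 in late spermatocytes, and 0 members past 2-fold the same way in any type. The list of endoplasmic reticulum chaperones and the unfolded protein response had 0 calls and 0 members past 2-fold in both genotypes. In the male gonad associated epithelium its median log2 ratio was 0.33 in chinmoST and 0.53 in WT testes, with 10 and 11 of 13 members higher, beside medians over all genes of 0.00758 and -0.04. Of the ecdysone and juvenile hormone list, E23 at the base was the only call, and Oatp74D, an importer of ecdysone, was past 2-fold higher in intermediate cyst cells of both genotypes. It had 14.0 CPM at 9–11 d against 4.68 CPM at 6–8 d in chinmoST testes, and 12.3 CPM against 5.48 CPM in WT testes (log2 fold change 1.34, adjusted p = 0.347).

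The share of kept cells in each type was compared as well. Late cyst cells made up 6.29% at 9–11 d against 11.4% at 6–8 d in chinmoST testes, and 13.1% against 18.1% in WT testes. Intermediate spermatocytes made up 1.89% at 9–11 d against 5.90% at 6–8 d in chinmoST testes, and 3.39% against 4.16% in WT testes. Early spermatocytes made up 27.7% at 9–11 d against 11.9% at 6–8 d in chinmoST testes, and 2.01% against 2.32% in WT testes, higher at the later age in chinmoST testes only. The somatic cells at the base made up 0.794% at 9–11 d against 2.40% at 6–8 d in chinmoST testes, and 1.65% against 2.55% in WT testes. Late cyst cells, late spermatocytes, intermediate spermatocytes, late spermatids and the base cells had lower shares at 9–11 d in both genotypes. With cells held to a common minimum of 2105 UMIs, the direction turned for late spermatocytes in chinmoST (16.0% at 9–11 d against 13.9% at 6–8 d) and, in WT testes, for intermediate spermatocytes (4.25% at 9–11 d against 4.16% at 6–8 d) and late spermatids (4.38% at 9–11 d against 3.68% at 6–8 d). With 2 libraries an age, the smallest p that permuting them exactly (two-sided) can give is 0.333, so no share could pass 0.05. Libraries also differed in the fewest UMIs that a kept cell had, which lay between 1112 and 2105.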

How the data were processed

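Single-cell RNA was measured with 10x 3′ chemistry in testes of chinmoST and WT males, 1 library per genotype and age, and the 9–11 d and 6–8 d libraries were used here. The deposited count matrices hold UMIs per gene and barcode, which the authors made with Cell Ranger 4.0.0 on dm6. With Seurat 3.2.2 (the processing notes also name 3.0) the authors filtered cells by genes detected and by the percent of mitochondrial UMIs, a column they deposited, and named the cell types. Their cell set was kept as deposited, with no doublet caller run here.

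UMIs were summed per library and type, which was used if it held at least 20 cells in each of the 4 libraries. edgeR 4.0.16 (R 4.3.3) gave the tests, with TMM scaling, filterByExpr, genotype and age as terms, 1 residual degree of freedom and Benjamini-Hochberg adjustment over all genes of a type. Calls had an adjusted p under 0.05. The spread behind a p-value is moderated across the genes of a type, so a small p can go with 2 pairs that disagree. The p-values cover only these libraries, each a pool of testes, so that age and library cannot be told apart. Ratios within a genotype used TMM-scaled counts with 0.5 added and 95% exact binomial intervals, which cover counting error only. The SE is that of the 2 per-genotype log2 ratios, on another scale than edgeR's fold change. CPM of genes use TMM-scaled library sizes, and shares of UMIs do not. A type's level in percent of the highest type was taken over types with at least 50 cells. The procedure was tested on simulated counts.

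Named genes were, per type, up to 5 called genes each way with the largest change among those past 2-fold in both genotypes, the genes past 2-fold in most types (up to 15 each way in both genotypes and 8 each way in only one), and called or 2-fold members of the 35 gene lists. The members and lists were chosen with earlier results of these data known. Genes outside this rule, the set of 10 recurring genes and the limit of 10% of the highest type were chosen after their values were seen, among the genes Abl, Act5C, AttC, Bbd, BomT2, CG12506, CG13946, CG30197, CG42827, CG8399, Egfr, Hnf4, LanB1, Lst, Mkp3, Nup50, Obp99a, Rack1, Sec61alpha, Tsf1, Vha16-3, Vha16-5, abd-A, babos, blanks, ergic53, fabp, jagn, luna, peb, pyr and vir-1. DESeq2 1.42.0, RLE scaling, no low-count filter, no pairing term, all 6 libraries, a common UMI minimum, other size limits and each library left out were tried as alternatives. A second deposited table of the same counts was not used.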

Additional observations from a re-analysis of the deposited data

Results flagged for a closer look

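Both genes below were past 2-fold in opposite ways in the genotypes, and whether the age difference differs between the genotypes was not tested. The gap given is the log2 ratio of 9–11 d over 6–8 d in chinmoST minus that in WT testes. blanks, which encodes a protein of spermatogenesis that binds double-stranded RNA, had ratios of 1.22 in chinmoST and -1.08 in WT testes in early spermatids (gap 2.30) and of 1.11 in chinmoST and -1.87 in WT testes in intermediate cyst cells (gap 2.98). Its ratios were 1.16 in chinmoST and -1.09 in WT testes in late spermatids (gap 2.25) and 1.00 in chinmoST and -2.81 in WT testes in the male gonad associated epithelium (gap 3.81). Tsf1, a transferrin gene, had ratios of 1.57 in chinmoST and -1.45 in WT testes in early spermatids (gap 3.02) and of 3.42 in chinmoST and -1.04 in WT testes in the male gonad associated epithelium (gap 4.46). In all, 172 of 50401 measurable combinations were past 2-fold in opposite ways, and the types share their libraries.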

How the results depend on the processing

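The replicate block, here genotype as the pairing term, is part of the design used above. The genotypes mark the pairs because each library pair shares its fly strain. With no replicate block edgeR called 0 in early spermatids, early spermatocytes, intermediate cyst cells, intermediate spermatocytes, late cyst cells, late spermatocytes, the base cells and the male gonad associated epithelium, while 1080 values over all types had an unadjusted p under 0.05. DESeq2 called 36 in all, 30 of them shared with edgeR's 199, with 5 in late spermatocytes, 7 in intermediate cyst cells, 0 in early spermatocytes, late cyst cells and the male gonad associated epithelium and 2 in early spermatids and intermediate spermatocytes. Under RLE scaling 116 were called, 111 of them shared, with 11 in late spermatocytes, 0 in late cyst cells, 10 in intermediate spermatocytes and 27 in early spermatids. With no low-count filter 608 were called, 173 shared, with 185 in the base cells, 43 in pigment cells, 88 in late spermatocytes, 40 in late spermatids, 67 in intermediate spermatocytes, 74 in intermediate cyst cells and 8 in early spermatocytes. In a fit of all 6 libraries 7 were called, 7 shared, with 4 in intermediate cyst cells, 1 in early spermatocytes, the base cells and the male gonad associated epithelium and 0 in early spermatids, intermediate spermatocytes, late cyst cells and late spermatocytes. Cells held to a common minimum of 2105 UMIs gave 1090 calls over 8 types, 83 shared, with 2 in the male gonad associated epithelium, 254 in late cyst cells, 49 in intermediate spermatocytes, 683 in intermediate cyst cells, 26 in early spermatocytes and 0 in early spermatids, and this was not run for pigment and base cells, which had too few such cells. The cause of these differences was not tested.

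Leaving out 1 library breaks a pair, so the age term then stands alone in the model and differences between genotypes enter it. The lowest and highest numbers of calls over the 4 fits of 3 libraries were 0 and 2 in early spermatids, 0 and 33 in early spermatocytes, 0 and 6 in intermediate cyst cells, 1 and 18 in intermediate spermatocytes, 0 and 48 in late cyst cells, 0 and 37 in late spermatids, 0 and 30 in late spermatocytes, 0 and 400 in pigment cells, 0 and 77 in the base cells and 0 and 35 in the male gonad associated epithelium. Of 56 fold changes printed above, 56 kept their direction in DESeq2, 56 under RLE scaling and 56 with no replicate block, which left 50 of them without a call they had. Some log2 fold changes turned round when a library was left out. Their lowest and highest values over these fits were -0.86 and 4.34 for CAH5 in the base cells, -0.61 and 4.24 for Tsp42Eg in the base cells, -0.0647 and 0.63 for MtnA in the male gonad associated epithelium, -0.23 and 1.66 for vir-1 in the male gonad associated epithelium, -4.27 and 1.28 for lncRNA:Hsromega in intermediate cyst cells, -2.06 and 6.02 for CG30197 in intermediate cyst cells, -1.01 and 4.73 for babos in intermediate cyst cells, -1.26 and 0.44 for Hsp26 in late spermatocytes, -1.68 and 2.78 for RpL18 in early spermatids, -0.97 and 2.17 for RpL3 in early spermatids, -0.58 and 1.82 for Rack1 in early spermatids, -1.58 and 0.00854 for MtnA in early spermatids and -1.22 and 0.18 for Obp44a in early spermatids.

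Genes past 2-fold the same way in both genotypes numbered 679 at 1.5-fold and 101 at a minimum of 50 UMIs in the higher library. In the types that the common UMI minimum left with enough cells they numbered 175, against 81 with all kept cells. Depth limits the base and pigment cells most, and genes under 20 UMIs in both libraries of a genotype could not be placed in any of the 2-fold classes.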
